A study of Homo sapiens with 9 samples.

Results

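The mRNAs of 4 adenylate kinases (AK1, AK3, AK4 and AK6) and of both catalytic subunits of AMP-activated protein kinase (PRKAA1 and PRKAA2) were followed in Hep3B cells, an established human hepatocellular carcinoma line. These 6 genes were taken by their symbols from a table of RNA-seq read counts that listed 60683 genes, and all 6 were among the 22672 genes with enough counts to be tested. Cultures in 6-well plates were held for 24 hours in 1 of 3 conditions with 3 biological replicates each, namely DMSO vehicle at 20% O2, DMSO vehicle at 1% O2 (hypoxia), and 32-134D at 1% O2. 32-134D is a small molecule that the study describes as an inhibitor of the hypoxia-inducible factors (HIFs), the transcription factors that accumulate when oxygen is scarce. The samples held no 32-134D group at 20% O2 and came from a single cell line at a single time, so an effect of the compound apart from hypoxia was not measured.

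Adenylate kinases move phosphate between adenine nucleotides, joining a pair of ADP molecules into ATP and AMP and back again, so that a small loss of ATP becomes a larger proportional gain in AMP. AMPK senses that AMP: its catalytic α subunit, encoded by PRKAA1 (α1) or PRKAA2 (α2), works in a trimer with a scaffolding β and a nucleotide-binding γ subunit, and once phosphorylated by an upstream kinase it slows lipid and protein synthesis and favours ATP production. In liver the pathway is best known for restraining fatty acid and cholesterol synthesis. RNA-seq reads the transcripts of these proteins and neither their enzyme activity nor AMPK phosphorylation.

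The libraries held 6013980 to 40549699 counted reads, and the smallest was vehicle at 20% O2 replicate 2. 32-134D replicate 3 stood apart from its replicates (chi-square over genes of 40.5 and 36.2 for each degree of freedom, where the other replicate pairs gave 1.64 to 13.3), so members whose values rested on it are given with and without it. This chi-square rises with read depth, so it can miss a difference of the smallest library. On the second principal component of log2 levels, vehicle at 20% O2 replicate 2 lay at −75.1, against 15.9 and 11.8 for its replicates. 32-134D replicate 3 lay at 47.0, against 14.2 and 16.2. The part of read depth in these distances was not tested. The 5 HIF targets used as a check (CA9, EPO, NDRG1, VEGFA and ANGPTL4) were all higher in hypoxia and all lower with 32-134D than in hypoxic vehicle (edgeR FDR below 0.05 and fold change above 1.5). Against vehicle at 20% O2, 4 of the 5 were higher with 32-134D, where 3% of all tested genes were called higher. All 8 hepatocyte markers were measured, and their summed level was 17976 to 19368 CPM (read counts scaled to a common library size with TMM factors) at 20% O2, 13059 to 16400 CPM in hypoxia and 11361 to 17739 CPM with 32-134D. By the same thresholds 2 of the 8 were lower and 0 higher in hypoxia, and 3 were lower and 1 higher with 32-134D. The sum mixed unlike markers. ALB averaged 9283, 9535 and 8114 CPM at 20% O2, in hypoxia and with 32-134D, and APOB 4486, 405 and 3519 CPM. Markers of leukocytes, endothelium and fibroblasts summed to 10.4 to 12.3, 5.00 to 6.23 and 9.16 to 13.8 CPM in the same order. VWF and ACTA2 were at 0 in every library, PTPRC had 7 reads and DCN 4 reads in all, and the other 4 of these 8 markers were tested, all lower in hypoxia and all higher with 32-134D. The cultures were of a single cell line. The source of the reads on markers of other cells, and the part of any marker in the members' results, were not tested. In bulk RNA fewer cells with a transcript and less of it per cell cannot be told apart.

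HIFs bind short DNA elements whose core reads ACGTG or GCGTG. RefSeq promoter windows (GRCh38.p14) were found for 6 of 6 members, and the 250 bases before each RefSeq start were searched on both strands. AK4 and PRKAA2 are printed because only in their first windows did the searched bases lie wholly or almost wholly before the GENCODE gene. AK4 had the largest hypoxic difference of the members, and PRKAA2 was a member with no call in any comparison. Both are shown in the direction of transcription, and any match to either motif is in capitals. The AK4 stretch stops 3 bases short of the RefSeq start, where the GENCODE gene begins.
AK4, chr1:65147302-65147548, plus strand: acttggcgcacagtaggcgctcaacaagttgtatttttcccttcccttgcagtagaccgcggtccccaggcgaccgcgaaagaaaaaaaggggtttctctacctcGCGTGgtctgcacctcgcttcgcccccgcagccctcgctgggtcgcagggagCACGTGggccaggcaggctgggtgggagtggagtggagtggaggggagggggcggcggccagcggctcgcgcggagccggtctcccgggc
PRKAA2, chr1:56645064-56645313, plus strand: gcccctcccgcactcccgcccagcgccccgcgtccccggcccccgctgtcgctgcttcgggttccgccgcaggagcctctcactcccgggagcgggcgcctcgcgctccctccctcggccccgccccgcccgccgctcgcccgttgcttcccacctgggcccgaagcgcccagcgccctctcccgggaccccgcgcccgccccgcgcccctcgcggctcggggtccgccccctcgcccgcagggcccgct

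The first of 4 AK4 windows, the one printed, held GCGTG 145 bases before the RefSeq start and the palindrome CACGTG, which contains ACGTG on each strand, 93 bases before it. The second AK4 window held neither motif, the third held GCGTG 177, 68 and 11 bases before its start, and the last held it 127 bases before. PRKAA2, PRKAA1 and AK3 held neither motif in any of their windows. On the minus strand, the GENCODE genes AK3 and PRKAA1 begin at 4742043 and 40798374, upstream of first RefSeq starts at 4741799 and 40798177. Most bases searched for both therefore lay inside the GENCODE gene. So did most of the first AK6 window (start 69369824, gene from 69370013) and a smaller part of the first AK1 window. The later windows of AK1, AK3, AK4 and AK6 lay inside it as well. AK6 held ACGTG 159 bases before its first start and CACGTG 9 bases before its second, and AK1 held GCGTG 220 bases before its first. Among 35116 RefSeq windows of the same length, 18.5% held ACGTG, 32.2% held GCGTG and 6.34% held CACGTG. Of 27305 genes, 21.7%, 36.2% and 7.73% held them in at least 1 window. ACGTG and GCGTG are thus common and CACGTG less so, and a match is a description of the letters only. The members had 1 to 4 windows each, and more windows give more room for a match. No match says only that the letters are not in these windows.

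Between vehicle at 1% and vehicle at 20% O2, AK4 and AK6 mRNA rose and no member fell past both thresholds. A gene was called where the edgeR quasi-likelihood test gave a Benjamini-Hochberg FDR below 0.05 over all tested genes and the fold change was above 1.5. By this rule 2 of 6 members were higher, 0 were lower and 4 were not called, while 39.7% of all tested genes were called, 19.5% higher and 20.3% lower. With the FDR threshold alone 3 members and 53.5% of tested genes passed. Among the members AK3 was lower at an unadjusted p below 0.05, and DESeq2 also called 2 higher and 0 lower. The median log2 fold change of the members was −0.11 and that of all tested genes was 0.00. The libraries of the 2 groups did not overlap for 4 of 6 members and for 60.5% of all tested genes.

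With 32-134D at 1% O2 compared with vehicle at 1% O2, AK4 mRNA fell and no member rose past both thresholds. Of the 6 members 1 was called lower and 0 higher, against 29.9% of tested genes called, 16.2% higher and 13.7% lower. With the FDR threshold alone 4 members and 47.5% of tested genes passed. At an unadjusted edgeR p below 0.05, AK3 and PRKAA1 were higher and AK4 and AK6 were lower. DESeq2 made the same counts of calls, 1 lower and 0 higher. The members' median log2 fold change was 0.19 against −0.01 for all tested genes. The libraries did not overlap for 4 of 6 members and for 56.1% of tested genes. Between 32-134D at 1% O2 and vehicle at 20% O2, 0 of 6 members were called by edgeR and 1 (AK6) had an FDR, and also an unadjusted p, below 0.05, where 3.52% of tested genes were called, 3% higher and 0.516% lower, 10.3% had an FDR below 0.05 and 29.8% did not overlap. DESeq2 also called 0 members there. The 3 comparisons share groups, so their values are given side by side and are not independent.

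**Figure D1:**
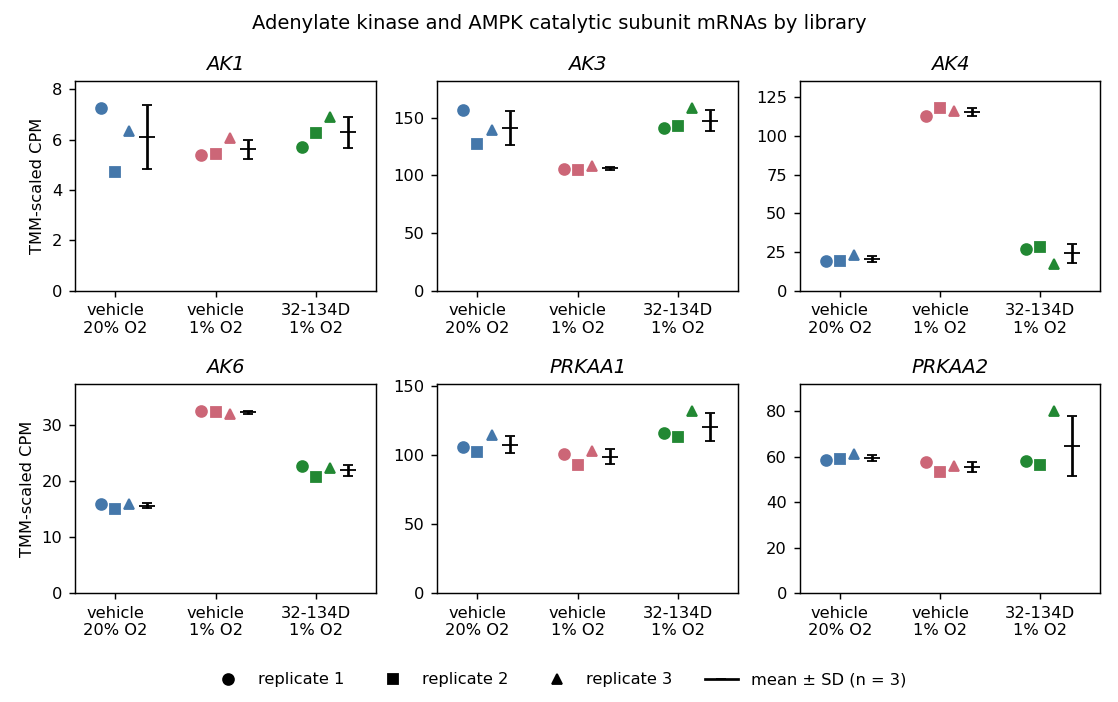
Level of each member in each of the 9 libraries, in CPM scaled by TMM (y axes start at 0, a separate scale for each gene). Points are libraries, shaped by replicate, and bars are the mean ± SD of 3. AK4 stands between 113 and 118 CPM in vehicle at 1% O2 and between 17.3 and 28.2 CPM in the other 6 libraries, and PRKAA2 has 1 high library, 32-134D replicate 3.

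AK4 lies at chr1:65147549-65232145 on the plus strand (GRCh38, GENCODE) and encodes an adenylate kinase of the mitochondrial matrix with low catalytic activity. Its level was 18.9, 19.5 and 22.8 CPM in vehicle at 20% O2, 113, 118 and 116 CPM in vehicle at 1% O2, and 26.7, 28.2 and 17.3 CPM with 32-134D. All 3 hypoxic vehicle libraries were far above the other 6, and the 32-134D libraries overlapped those at 20% O2. AK4 was 5.60-fold higher in hypoxia (95% CI 4.51 to 6.96, log2 fold change 2.49, SE 0.15, FDR = 3.08e-09), which placed it at percentile 97.2 of the log2 fold changes of all tested genes. With 32-134D it was 4.77-fold lower than in hypoxic vehicle (log2 fold change −2.25, SE 0.14, FDR = 1.51e-08), at percentile 1.09. Against 20% O2, the 32-134D group differed by 0.23 on the log2 scale (SE 0.15, 95% CI −0.08 to 0.54, FDR = 0.361). Without 32-134D replicate 3, the lowest of its group, that difference was 0.40 with an FDR of 0.00316, still under 1.5-fold.

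AK4 has several processed pseudogenes whose reads the counting could have exchanged with it. AK4P1 and AK4P3 together held 1.47% to 4.18% as many reads as AK4 at 20% O2, 3.76% to 5.19% in hypoxic vehicle and 2.90% to 5.32% with 32-134D. AK4P1 had 10, 5 and 10 reads at 20% O2, 150, 79 and 133 reads in hypoxia and 40, 19 and 8 reads with 32-134D, the same order of groups as its parent. Of 12 pseudogenes named after a member, 3 had enough reads to be tested, and AK3P3 held at most 0.705% as many reads as AK3.

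AK3 (chr9:4709559-4742043, minus strand) encodes the GTP-dependent adenylate kinase of the mitochondrial matrix and was the most abundant of the 6 member mRNAs per exon length. It stood at 157, 128 and 139 CPM at 20% O2, 105, 105 and 108 CPM in hypoxic vehicle, and 141, 143 and 158 CPM with 32-134D. The hypoxic vehicle libraries were the lowest 3 of the 9 and overlapped neither of the other groups. The level in hypoxia was 1.33-fold lower (log2 fold change −0.42, SE 0.08, FDR = 0.000474), and with 32-134D it was 1.39-fold higher than in hypoxic vehicle (log2 fold change 0.48, SE 0.08, FDR = 0.000182). Both passed the FDR threshold and neither passed 1.5-fold, so AK3 was not called in either comparison. Scaled by total library size instead of TMM, AK3 was called in both (log2 fold changes of −0.63 and 0.66), but that scaling also moved the median of all genes to −0.21 and 0.17, and relative to those medians the values were −0.42 and 0.49.

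AK6 (chr5:69350984-69370013, minus strand) encodes a small nuclear adenylate kinase that also takes part in ribosome maturation. Its level was 15.9, 15.1 and 15.9 CPM at 20% O2, 32.5, 32.4 and 32.0 CPM in hypoxic vehicle, and 22.6, 20.8 and 22.4 CPM with 32-134D. The 3 groups did not overlap, and the 32-134D libraries lay between the other 2 groups. In hypoxia it was 2.06-fold higher (log2 fold change 1.04, SE 0.09, FDR = 1.14e-07). With 32-134D it was 1.47-fold lower than in hypoxic vehicle (log2 fold change −0.56, SE 0.08, FDR = 5.00e-05) and 1.40-fold higher than at 20% O2 (log2 fold change 0.48, SE 0.09, FDR = 0.00267), both under the fold threshold.

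AK6 shares its locus and strand with TAF9, a subunit of the general transcription factor TFIID. In GENCODE, 530 exonic bases belong to both genes, 24.5% of the 2162 exonic bases of AK6 and 20.6% of the 2577 of TAF9, and how the counting treated reads there is not given in the sources used here. TAF9 stood at 27.1, 27.3 and 30.0 CPM at 20% O2, 42.3, 44.6 and 43.5 CPM in hypoxic vehicle, and 35.5, 31.4 and 38.3 CPM with 32-134D. It moved in the order of AK6 by smaller amounts, with a log2 fold change of 0.62 in hypoxia (FDR = 3.45e-05) and of −0.31 with 32-134D (FDR = 0.00838, under the fold threshold). Its hypoxic call was lost in 5 of 9 alternative settings, with 0.57 under DESeq2 and 0.41 by total library size, and in 2 of 9 fits that left out 1 library (0.53 without vehicle at 20% O2 replicate 1 and 0.57 without 32-134D replicate 1). The part of the shared exons in either gene's values was not tested.

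AK1 (chr9:127866480-127877743, minus strand) encodes the cytosolic adenylate kinase best known from muscle and was the scarcest member, with 30 to 209 reads in a library. Its level was 7.24, 4.71 and 6.36 CPM at 20% O2, 5.38, 5.42 and 6.05 CPM in hypoxic vehicle, and 5.70, 6.26 and 6.90 CPM with 32-134D. All 3 groups overlapped, and the widest spread was within the 20% O2 group. The log2 fold change was −0.16 in hypoxia (95% CI −0.50 to 0.18, FDR = 0.427) and 0.16 with 32-134D against hypoxic vehicle (95% CI −0.17 to 0.48, FDR = 0.425). Both intervals lie within 1.5-fold in either direction.

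PRKAA1 (chr5:40759379-40798374, minus strand), the α1 catalytic subunit, stood at 106, 102 and 114 CPM at 20% O2, 101, 92.6 and 103 CPM in hypoxic vehicle, and 115, 113 and 132 CPM with 32-134D. The 32-134D libraries all lay above those of hypoxic vehicle, and the vehicle groups overlapped each other. The log2 fold change was −0.12 in hypoxia (95% CI −0.30 to 0.05, FDR = 0.215). With 32-134D it was 0.28 against hypoxic vehicle (SE 0.08, FDR = 0.00872), a 1.22-fold difference that was not called. It was 0.21 without 32-134D replicate 3 (FDR = 0.0165), and without vehicle at 1% O2 replicate 2 the FDR threshold was also missed (0.24, FDR = 0.0516).

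PRKAA2 (chr1:56645322-56715335, plus strand), the α2 catalytic subunit, stood at 58.4, 59.2 and 61.0 CPM at 20% O2, 57.7, 53.3 and 55.8 CPM in hypoxic vehicle, and 58.3, 56.2 and 80.1 CPM with 32-134D. Apart from 32-134D replicate 3 the libraries ranged narrowly, with hypoxic vehicle just below 20% O2 and no overlap between those groups. The log2 fold change was −0.10 in hypoxia (95% CI −0.34 to 0.14, FDR = 0.485) and 0.22 with 32-134D against hypoxic vehicle (95% CI −0.02 to 0.46, FDR = 0.122). Without 32-134D replicate 3 the latter was 0.04, so that 1 library set most of its size.

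**Figure D2:**
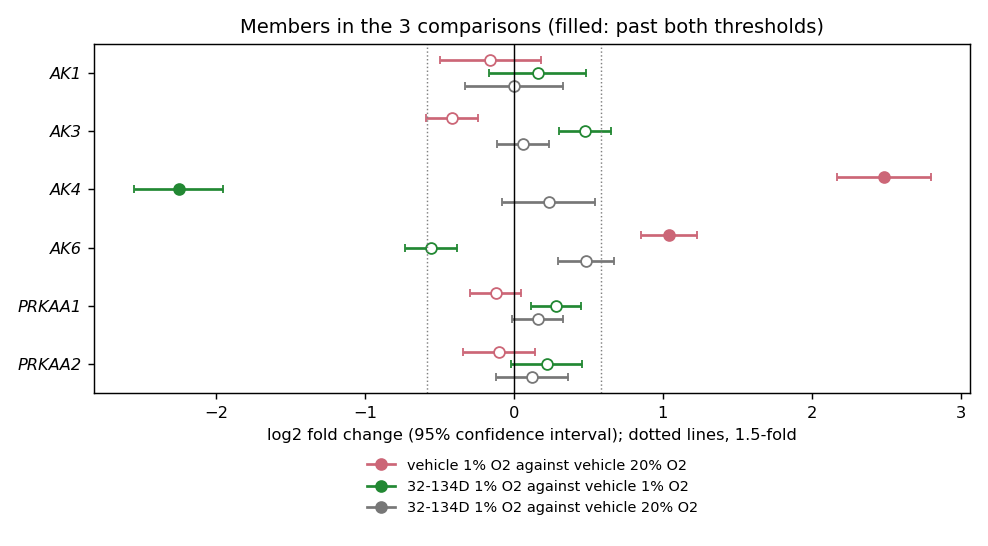
Log2 fold change of each member in the 3 comparisons (x axis), with 95% confidence intervals, and dotted lines at 1.5-fold. Filled points are past both thresholds. AK4 lies at 2.49 in hypoxia and −2.25 with 32-134D, AK6 at 1.04 and −0.56, and the intervals of AK1 and PRKAA2 include 0 in every comparison.

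The balance of the paired enzymes was read as a ratio of counts within each library, which does not depend on scaling between libraries. AK4 and AK3 share the mitochondrial matrix, and the ratio of AK4 to AK3 counts averaged 0.145 at 20% O2, 1.09 in hypoxic vehicle and 0.165 with 32-134D. Per exon length, AK4 stood at 0.0860, 0.644 and 0.0977 of AK3, so that AK3 stayed the more abundant of the pair. The log2 ratio differed by 2.91 in hypoxia and by −2.77 with 32-134D against hypoxic vehicle, with no overlap between the groups, and each gave p = 0.1 in a two-sided exact permutation test, the smallest p that 3 libraries against 3 allow (0.3 after Benjamini-Hochberg adjustment over 6 ratio tests). Between 32-134D and 20% O2 the log2 ratios differed by 0.15 (exact permutation p = 0.6, adjusted 0.7), and single libraries moved that value, which was 0.42 without 32-134D replicate 3, −0.0055 without replicate 2, 0.026 without replicate 1 and 0.015 without vehicle at 20% O2 replicate 1.

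PRKAA2 to PRKAA1, the balance of the α subunits, averaged 0.556, 0.564 and 0.537 in counts across vehicle at 20% O2, vehicle at 1% O2 and 32-134D. Per exon length it was 0.390, 0.396 and 0.377, with α1 mRNA the more abundant in every group. The log2 ratio differed by 0.02 in hypoxia (exact permutation p = 0.7) and by −0.08 with 32-134D (exact permutation p = 0.4), both 0.7 after adjustment. The latter was −0.17 without 32-134D replicate 3, whose log2 ratio of −0.72 was the highest of all 9 libraries, while those of the other 2 replicates, −0.99 and −1.01, were the lowest.

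**Figure D3:**
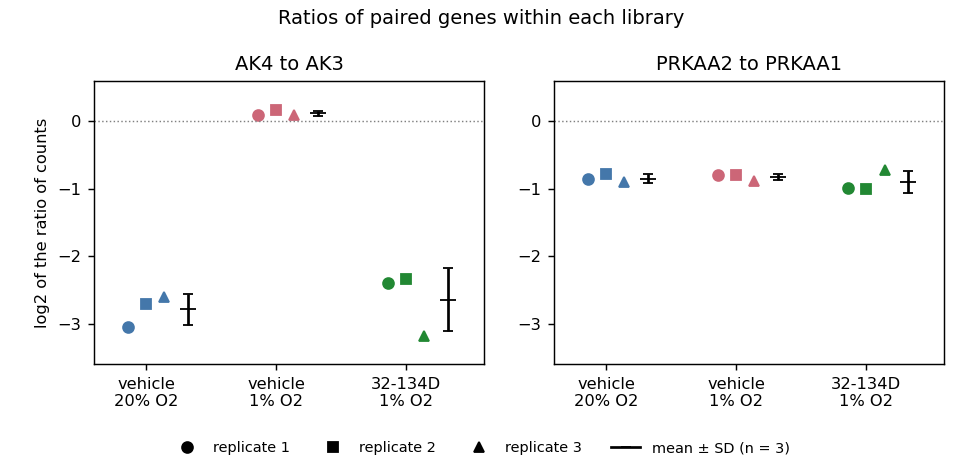
Log2 ratio of counts within each library (y axis, shared by both panels), AK4 to AK3 on the left and PRKAA2 to PRKAA1 on the right. Points are libraries and bars the mean ± SD of 3. The AK4 to AK3 ratio lies above 0 in the 3 hypoxic vehicle libraries and near −2.79 and −2.64 on average at 20% O2 and with 32-134D, while the PRKAA2 to PRKAA1 ratio averages −0.85, −0.83 and −0.90.

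Levels of different genes were compared per exon length, as RPKM, the CPM divided by exonic length in kilobases. At 20% O2 the order was AK3 (31.5 RPKM), PRKAA1 (16.3), AK6 (7.23), PRKAA2 (6.36), AK4 (2.69) and AK1 (2.29), and only the last 2 overlapped between libraries. In hypoxic vehicle AK3 led at 23.6 RPKM, followed by AK4 (15.2), PRKAA1 and AK6 (14.9), whose libraries overlapped, and then by PRKAA2 (5.94) and AK1 (2.11). AK4 thus stood level with PRKAA1 and AK6 only in that group. With 32-134D the order was again that of 20% O2, with 32.9 RPKM for AK3, 18.3 for PRKAA1, 10.1 for AK6, 6.93 for PRKAA2, 3.18 for AK4 and 2.36 for AK1, and again only AK4 and AK1 overlapped.

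AK5, AK7, AK8 and AK9 belong to the same family, and 0 of these 4 were called by edgeR or by DESeq2, or reached an unadjusted p below 0.05, in any of the 3 comparisons. Of all tested genes edgeR called 39.7%, 29.9% and 3.52% there. By total library size AK7 was called lower in hypoxia (log2 fold change −1.10, edgeR FDR just below 0.05). AK9 lay at 3.65 to 4.13 CPM in the group means. AK5, AK7 and AK8 had 96, 116 and 14 reads over all 9 libraries, and did not exceed 1.26 CPM in any library.

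As shares of the summed RPKM of the 4 member kinases AK1, AK3, AK4 and AK6, AK4 made up 6.18% ± 0.847 at 20% O2, 27.2% ± 0.491 in hypoxic vehicle and 6.58% ± 1.79 with 32-134D (SD, n = 3). AK3 made up 72.0%, 42.3% and 67.7%, AK6 16.6%, 26.7% and 20.9%, and AK1 5.20%, 3.76% and 4.85%. The summed level was 43.7 ± 3.88, 55.9 ± 0.503 and 48.6 ± 1.66 RPKM, so the hypoxic group had a larger total that was divided more evenly among AK3, AK4 and AK6. Shares add to a whole, and a larger share of one kinase lowers those of the others.

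**Figure D4:**
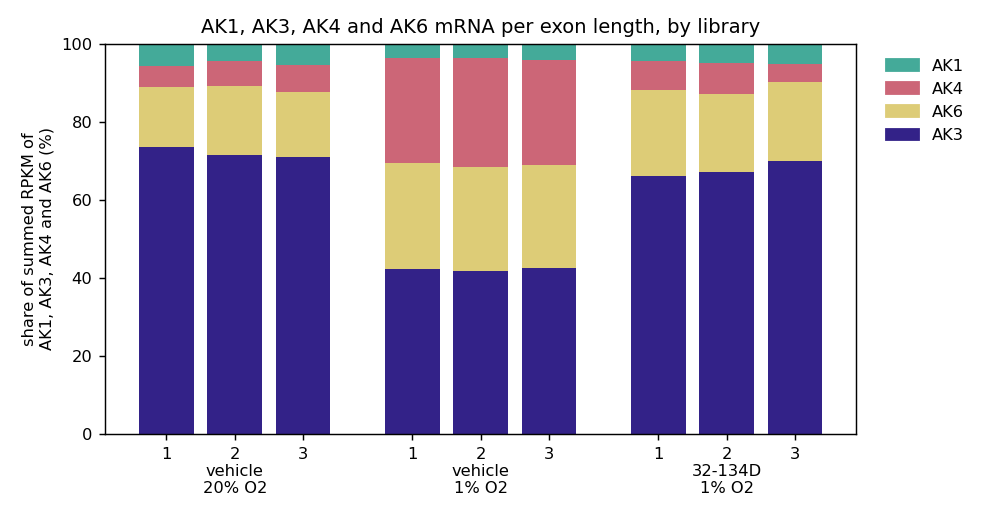
Share of each kinase in the summed RPKM of AK1, AK3, AK4 and AK6 (y axis, percent), with 1 bar for each library. AK4 takes 27.2% on average in vehicle at 1% O2 against 6.18% at 20% O2 and 6.58% with 32-134D, and AK3 takes 42.3% against 72.0% and 67.7%.

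The AMPK trimer also needs β and γ subunits, and here both β subunit mRNAs rose in hypoxia while neither α subunit did. Of 5 regulatory subunit genes 4 were tested, 2 were higher in hypoxia and 2 lower with 32-134D than in hypoxic vehicle, and 0 were called by edgeR or DESeq2, or reached an unadjusted p below 0.05, between 32-134D and 20% O2. In hypoxia and with 32-134D that was 50% of only 4 genes, where 39.7% and 29.9% of all tested genes were called. PRKAB2 (β2) stood at 55.6, 68.5 and 62.6 CPM at 20% O2, 113, 107 and 110 CPM in hypoxic vehicle, and 66.6, 66.8 and 43.5 CPM with 32-134D. Hypoxic vehicle was the highest group without overlap, and 32-134D replicate 3 was the lowest library. Its log2 fold change was 0.83 in hypoxia (SE 0.13, FDR = 8.35e-05) and −0.89 with 32-134D (SE 0.13, FDR = 4.67e-05), or −0.72 without that library.

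PRKAB1 (β1) stood at 53.1, 55.9 and 56.0 CPM at 20% O2, 94.1, 97.0 and 86.5 CPM in hypoxic vehicle, and 62.7, 66.4 and 55.1 CPM with 32-134D. Its log2 fold change was 0.75 in hypoxia (SE 0.08, FDR = 2.26e-06) and −0.59 with 32-134D (SE 0.08, FDR = 2.88e-05). The hypoxic call was lost in 1 of 9 alternative settings, total library size, with 0.54. The second value sits at the fold threshold: the call was lost in 7 of 9 alternative settings, DESeq2 among them with −0.53, and in 6 of 9 fits that left out 1 library, all but those without vehicle at 20% O2 replicate 2 or 3 or 32-134D replicate 2. The γ subunits PRKAG1, at 26.3, 29.9 and 26.2 CPM, and PRKAG2, at 6.69, 5.56 and 5.75 CPM, were not called, and PRKAG3 had 2 reads in all. Differences between the responses of the α and β subunits were not tested.

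Among 8 genes for the kinases upstream of AMPK and their partners, 1 was higher and 2 were lower in hypoxia, and 2 were higher and 1 lower with 32-134D than in hypoxic vehicle. That was 37.5% in each comparison, against 39.7% and 29.9% of all tested genes. STRADA, the pseudokinase that activates the upstream kinase STK11, averaged 17.5 ± 0.928, 6.18 ± 0.361 and 13.6 ± 0.417 CPM at 20% O2, in hypoxic vehicle and with 32-134D (log2 fold changes of −1.49, FDR = 2.71e-08, and 1.13, FDR = 6.92e-07). CAMKK2, the calcium-dependent AMPK kinase, averaged 68.1 ± 5.48, 39.5 ± 4.46 and 65.2 ± 6.30 CPM (−0.78, FDR = 1.03e-05, and 0.72, FDR = 3.00e-05). CAB39L, a scaffold of the STK11 complex, was higher in hypoxia by 0.90 (FDR = 0.000547) and was also higher with 32-134D than at 20% O2 by 0.66 (FDR = 0.0304). CAMKK1, with group means under 2 CPM, was lower with 32-134D (−0.79 on the log2 scale, FDR = 0.0116). That call was lost after thinning to the smallest library. It was also lost without vehicle at 1% O2 replicate 1, by its FDR (−0.64, edgeR FDR = 0.0699). STK11 itself was not called, at 206, 231 and 189 CPM.

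Of 21 genes that encode AMPK substrates, 20 were tested, 6 were higher and 8 lower in hypoxia, and 7 were higher and 5 lower with 32-134D than in hypoxic vehicle. Those were 70% and 60% of the tested list, against 39.7% and 29.9% of all tested genes. The list was chosen with earlier results of these data known, and the gap was not tested. The list's median log2 fold changes were −0.02 and 0.05 against 0.00 and −0.01 for all genes, so its members moved in both directions. ACACA, the cytosolic acetyl-CoA carboxylase of fatty acid synthesis, averaged 144 ± 19.8, 27.1 ± 2.07 and 125 ± 5.58 CPM (log2 fold changes of −2.41, FDR = 1.36e-10, and 2.20, FDR = 9.49e-10). RPTOR, the scaffold of the growth-promoting kinase complex mTORC1, averaged 106, 22.2 and 89.7 CPM (−2.25, SE 0.11, FDR = 5.62e-10, and 2.01, SE 0.11, FDR = 4.69e-09). PFKFB3, which makes the activator of phosphofructokinase in glycolysis, went the other way at 133 ± 10.8, 583 ± 62.1 and 158 ± 13.7 CPM (2.14, FDR = 2.73e-10, and −1.88, FDR = 2.69e-09). Between 32-134D and 20% O2, 0 of the 20 were called by edgeR or DESeq2 and 10 had an unadjusted p below 0.05, 3 higher and 7 lower.

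**Figure D5:**
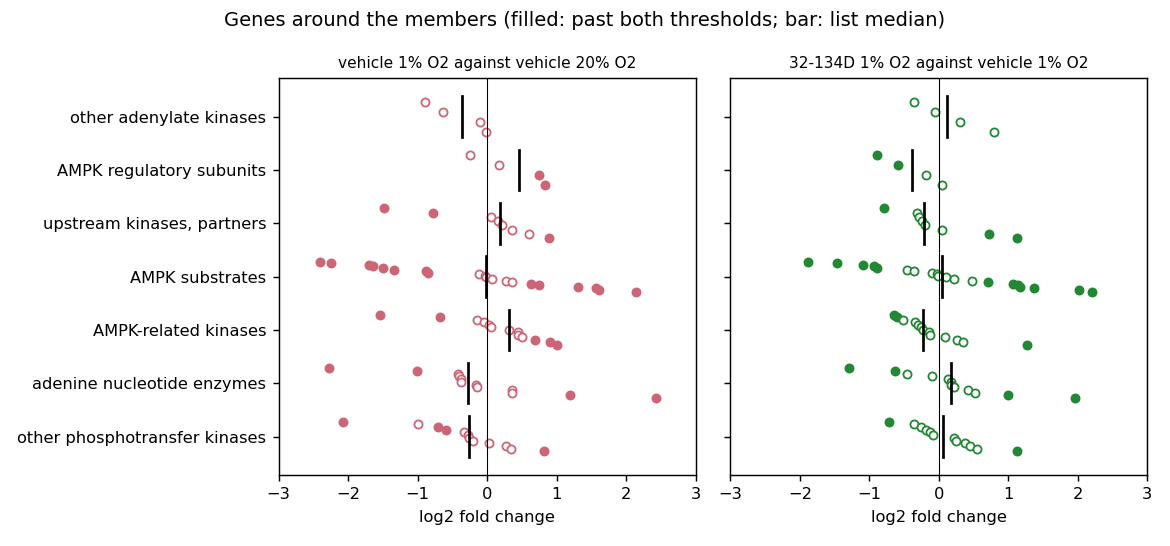
Log2 fold change (x axis) of each tested gene of 7 lists around the members, for vehicle at 1% against 20% O2 on the left and 32-134D against vehicle at 1% O2 on the right. Filled points are past both thresholds and bars are list medians. The AMPK substrates range from −2.41 to 2.14 in hypoxia, and AK5, AK7, AK8 and AK9 have no filled point.

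Over all 7 lists, 73 of 81 genes were tested, of which 43.8% were called in hypoxia, 35.6% with 32-134D against hypoxic vehicle and 2.74% between 32-134D and 20% O2, near the 39.7%, 29.9% and 3.52% of all tested genes. The genes whose profile over the 9 libraries was most like that of a member were found by the root mean square difference of centred log2 CPM among 9878 genes with a mean of at least 10 CPM. For AK4 these were FBXO17 (0.12), SLC6A8 (0.17) and FLVCR2 (0.19), and for AK6 CNOT10 (0.04), TDP2 (0.05) and UBQLN1 (0.05). The nearest gene to AK3 was SRSF1 (0.04), to AK1 MCTS1 (0.08), to PRKAA1 NLN (0.05) and to PRKAA2 SLC22A18 (0.05). AK4's nearest gene lay further off than the nearest gene of any other member. The distance was not scaled to the spread of a profile over the libraries, and AK4 had the largest spread of all members. The distances therefore cannot rank the members by how unusual their profiles were.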

How the data were processed

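RNA-seq was performed on 9 Hep3B cultures. The values the authors deposited are unnormalized counts for each Ensembl gene, in 1 table. Per the study's methods, reads were checked with FastQC, trimmed with Bbduk, aligned with STAR and counted with featureCounts, with GRCh38 named in the submitters' processing notes. The strand setting and tool versions are not given in the sources used here, and overlapping genes and pseudogenes can exchange reads. The 9 columns were matched to samples by their labels, and 0 were left unmapped.

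Genes with a summed count of 10 or more entered 1 edgeR 4.0.16 fit of all 9 libraries (R 4.3.3, TMM scaling, quasi-likelihood test, no replicate block), from which 3 comparisons were drawn. The cut-offs for a call, FDR 0.05 and 1.5-fold, are those of the study, which used DESeq2. Differences are log2 fold changes, and CPM values are scaled by TMM. Exonic lengths and positions came from GENCODE version 29, which held 121 of the 121 genes looked up and 58496 of the 60683 listed. The study's methods name an Ensembl release for the alignment index that need not hold the same gene models, so lengths, RPKM and shared exonic bases may differ from those behind the counts. The promoter windows came from RefSeq. Ratios had 0.5 added to each count.

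The 6 members and all gene lists were chosen with earlier results of these data known. All members are named, with AK5, AK7, AK8, AK9 and every AMPK regulatory subunit. From each further list, up to 3 genes per comparison with the largest log2 fold change were named, among called genes with a mean of at least 1 CPM in whichever group was higher and libraries that did not overlap. CAB39L and AMPD3 are also given against 20% O2, chosen after their values were seen.

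Replicate numbers did not pair the libraries across groups (correlations of same-numbered libraries from −0.14 to 0.06, 0 of 9 over 0.1). Replicates were labelled as biological, and p-values measure the spread between these cultures. The smallest library had 6013980 counts, 30 of them for AK1, which limits that gene most. On simulated counts, with genes of at least 1 CPM changed, edgeR recovered 92, 94 and 88 of 100 genes changed 2-fold in the hypoxia, 32-134D and 32-134D against 20% O2 comparisons, and 5.42%, 6.31% and 4.08% of its calls were false. The simulation changed only 200 genes, evenly up and down, with the spread that edgeR had fitted. In the data 39.7% and 29.9% of tested genes were called in the first 2 comparisons, so these rates need not hold there.

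The alternatives were DESeq2 1.42.0, other scalings, filters and fold thresholds, a fit without the third group, libraries thinned to the smallest, the replicate block and leaving out each library. Leaving out both vehicle at 20% O2 replicate 2 and 32-134D replicate 3 was chosen after seeing the data. The make-up of the whole adenylate kinase family is not reported here.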

Additional observations from a re-analysis of the deposited data

How the results depend on the processing

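AK4 and AK6 stayed called as higher in hypoxia under all alternatives, and 3 members passed with total library size or with no fold threshold. With 32-134D against hypoxic vehicle, 1 member was called, 2 with total library size and 4 with no fold threshold. Against 20% O2, 0 were called, and 1 with no fold threshold. The replicate numbers share only a name, and the replicate block left the members at 2, 1 and 0 calls and gave 1 pathway gene in place of 2 against 20% O2. The pathway genes called were 32 in hypoxia and 18 above 2-fold, 26 with 32-134D, 44 with no fold threshold and 14 above 2-fold. Against 20% O2 they were 2, and 4 with no count filter, 1 in the fit of the 2 groups, 11 with no fold threshold, 1 above 2-fold, 1 without both doubted libraries, and 1 to 5 when each library was left out in turn. Those leave-one-out counts were 1 without vehicle at 20% O2 replicate 2 or 32-134D replicate 3, 5 without 32-134D replicate 1 and 4 without 32-134D replicate 2. The cause was not tested.

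Signs that turned were all of values near 0 or of few reads. AK1 against 20% O2 was 0.0127 with DESeq2 size factors, 0.0189 with no filter, 0.00723 with DESeq2, 0.00263 in the fit of the 2 groups, 0.0223 with the replicate block, 0.146 after thinning and −0.107 to 0.125 with a library left out. AK3 against 20% O2 was −0.0571 without both doubted libraries and −0.00469 to 0.144 with a library left out, and PRKAA2 was −0.0642 and −0.0606 to 0.210. AK5 in hypoxia was 0.0136 with no filter, 0.114 after thinning, 0.0165 without both libraries and −0.375 to 0.195 with a library left out. AK8 with 32-134D was 0.0627 without both libraries and −3.59 to 1.19 with a library left out, and in hypoxia −2.13 to 0.0664. AK9 with 32-134D was 0.126 by total library size, 0.0351 with 10 counts in every library, 0.00661 in the fit of the 2 groups and −0.0867 to 0.00405 with a library left out, and in hypoxia 0.0244 after thinning. PRKAG1 in hypoxia was −0.0400 by total library size, a scaling that lowered the share of calls that were higher in hypoxia from 49.0% to 34.5% and raised it with 32-134D from 54.2% to 72.0%.

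With 3 libraries in each group the ratio tests could not fall below 0.1, and AK1, AK5, AK7 and AK8 rest on few reads.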

Other observations

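Genes next to these enzymes in the handling of AMP, adenosine and phosphate were called at shares near or below those of all tested genes. Of 15 genes for AMP deaminases and other adenine nucleotide enzymes, 12 were tested, 2 were higher and 2 lower in hypoxia, and 2 were higher and 2 lower with 32-134D than in hypoxic vehicle. That was 33.3% in each comparison, against 39.7% and 29.9% of all tested genes. AMPD3, which deaminates AMP to IMP, stood at 4.30, 5.18 and 5.23 CPM in vehicle at 20% O2, 29.2, 25.2 and 24.9 CPM in vehicle at 1% O2, and 9.64, 10.8 and 12.1 CPM with 32-134D. The 3 groups did not overlap, with the 32-134D libraries between the others. Its log2 fold change was 2.43 in hypoxia (edgeR FDR = 1.69e-09), −1.29 with 32-134D (FDR = 5.38e-07) and 1.14 between 32-134D and 20% O2 (FDR = 9.55e-05). NT5E, the cell-surface 5′-nucleotidase that makes adenosine from AMP, averaged 42.0 ± 1.38, 8.81 ± 1.47 and 33.9 ± 4.42 CPM (−2.27, FDR = 2.23e-09, and 1.96, FDR = 2.32e-08). NT5C3A, a cytosolic pyrimidine 5′-nucleotidase, was higher in hypoxia by 1.19 (FDR = 9.86e-08), and ADK, which phosphorylates adenosine to AMP, was higher with 32-134D by 1.00 (FDR = 6.59e-06).

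Of 13 AMPK-related kinases, which share the upstream kinase STK11 or resemble AMPK in their catalytic domain, 3 were higher and 2 lower in hypoxia, and 1 was higher and 2 lower with 32-134D. Those were 38.5% and 23.1% of the list, against 39.7% and 29.9% of all tested genes. NUAK2 averaged 20.2 ± 1.87, 7.07 ± 0.784 and 16.9 ± 3.11 CPM (−1.54, FDR = 4.34e-07, and 1.27, FDR = 4.16e-06). SNRK averaged 15.8 ± 1.62, 32.2 ± 1.33 and 21.3 ± 2.22 CPM, with 1.01 in hypoxia (FDR = 1.24e-06) and −0.60 with 32-134D (FDR = 0.00017), and the second call was lost in 6 of 9 alternative settings, DESeq2 among them with −0.54, and in 5 of 9 fits that left out 1 library (vehicle at 20% O2 replicate 1, vehicle at 1% O2 replicate 1 or 3, or 32-134D replicate 1 or 3), with values as near to 0 as −0.51. BRSK1 was higher in hypoxia by 0.91 (FDR = 0.000162). MELK, a kinase of dividing cells, was lower with 32-134D (−0.64, FDR = 1.62e-05), a call lost in 5 of 9 alternative settings, with −0.46 by total library size, and without vehicle at 20% O2 replicate 1 or 32-134D replicate 3, each with −0.58. Of 15 other nucleotide and creatine phosphotransfer kinases 12 were tested, 1 was higher and 3 lower in hypoxia, and 1 was higher and 1 lower with 32-134D. Those were 33.3% and 16.7% of the 12. GUK1, the guanylate kinase, averaged 90.8 ± 11.6, 160 ± 4.47 and 97.8 ± 6.70 CPM (0.81, FDR = 1.84e-06, and −0.71, FDR = 9.84e-06), where total library size took the second call away with −0.52. CKM, the muscle creatine kinase, was lower in hypoxia at 2.37 against 9.86 CPM (−2.07, FDR = 0.000132), and NME3, a nucleoside diphosphate kinase, at 17.4 against 28.5 CPM (−0.71, FDR = 0.000258).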
